A study of Homo sapiens with 4 samples.

Results

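The genes JPH2, NPTX1, RASGRF1, NFATC4, PPL, SLC44A2 and VAT1L are 7 of the 25680 gene names counted by RNA-seq in THP-1 cells, an established human monocytic leukaemia line. Both groups were THP-1 cells that had taken up a lentivirus and were sorted 48 hours after transduction. The virus carried a short hairpin RNA against PIWIL4 in the shPIWIL4 group (2 libraries) and a scrambled hairpin in the Scrambled group (2 libraries). Both shPIWIL4 libraries have a treatment label that mentions a scrambled hairpin and PIWIL4 together, so their group follows the titles instead. The labels give no second hairpin against PIWIL4 and do not say that the libraries of a group came from separate cultures. The p-values below thus rest on a spread that may be technical. The genes were chosen because they were among the largest falls in shPIWIL4 and are best known outside the myeloid lineage. Among genes called lower with at least 10 CPM (read counts scaled to library size) in Scrambled and with groups that did not overlap, they held ranks 1, 2, 3, 5, 8, 11 and 12 by log2 fold change. The others of those 12, SLC2A3, ARG1, HSPA7, SPP1 and ENO2, were left out of the set. Over all genes tested, without the limit on CPM, the ranks of the members were 6, 16, 25, 36, 49, 64 and 66. VAT1L, the last inside, had a log2 fold change of -3.69, and TBC1D30, the next outside, -3.68. Since this contrast chose the genes, their own differences are given as a description without a test.

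The 7 proteins differ in their textbook roles, and those of JPH2, RASGRF1 and NFATC4 involve calcium. Junctophilin JPH2 ties the plasma membrane to the endoplasmic or sarcoplasmic reticulum, best known in heart muscle, where it holds calcium channels close to the calcium store. NPTX1 is a secreted neuronal pentraxin that clusters AMPA-type glutamate receptors at synapses. RASGRF1 is an exchange factor of neurons that responds to calcium and calmodulin and loads Ras with GTP. NFATC4 is a transcription factor that enters the nucleus when the phosphatase calcineurin removes its phosphates in response to calcium. PPL (periplakin) is a plakin that joins intermediate filaments to desmosomes and to the cornified envelope of skin. SLC44A2 is a choline transporter-like membrane protein, and VAT1L is a little-studied relative of the synaptic vesicle protein VAT1. The label "non-myeloid" is not secure for SLC44A2, which is widely expressed and is known on neutrophils as the carrier of an alloantigen. No other tissue was measured, so the label could not be checked on expression elsewhere.

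RefSeq promoter windows (250 bases before to 50 after a transcript start, build GRCh38.p14) were found for 4 of the 7 genes, in 7 windows: 1 for JPH2, 1 for VAT1L, 2 for SLC44A2 and 3 for NFATC4. The counts were made on hg19, and the windows were matched by symbol only. Since these genes were chosen for their falls, their first windows are shown as a description only. They are chr20:44187139-44187438 (minus strand) for JPH2, chr16:77788314-77788613 (plus strand) for VAT1L, chr19:10602205-10602504 (plus strand) for SLC44A2 and chr14:24366661-24366960 (plus strand) for NFATC4. Capitals mark the GC box GGGCGG on either strand, the only motif of 10 searched that was found in all 7 windows.
JPH2: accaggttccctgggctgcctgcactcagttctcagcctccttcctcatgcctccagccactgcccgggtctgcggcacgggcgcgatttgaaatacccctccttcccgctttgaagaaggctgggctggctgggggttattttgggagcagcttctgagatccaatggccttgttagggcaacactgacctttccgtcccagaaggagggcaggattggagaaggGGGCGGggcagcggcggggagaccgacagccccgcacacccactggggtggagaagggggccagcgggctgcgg
VAT1L: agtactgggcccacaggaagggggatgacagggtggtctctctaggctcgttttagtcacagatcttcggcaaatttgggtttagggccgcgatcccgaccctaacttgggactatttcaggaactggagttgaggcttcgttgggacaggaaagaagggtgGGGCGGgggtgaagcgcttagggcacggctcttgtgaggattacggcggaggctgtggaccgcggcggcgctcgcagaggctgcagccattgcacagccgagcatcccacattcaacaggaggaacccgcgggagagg
SLC44A2: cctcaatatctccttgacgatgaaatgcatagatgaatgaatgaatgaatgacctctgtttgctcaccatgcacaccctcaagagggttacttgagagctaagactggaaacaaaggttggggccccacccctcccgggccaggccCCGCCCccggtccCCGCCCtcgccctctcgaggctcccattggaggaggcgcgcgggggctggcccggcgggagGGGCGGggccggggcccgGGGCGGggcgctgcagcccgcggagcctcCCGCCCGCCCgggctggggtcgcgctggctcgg
NFATC4: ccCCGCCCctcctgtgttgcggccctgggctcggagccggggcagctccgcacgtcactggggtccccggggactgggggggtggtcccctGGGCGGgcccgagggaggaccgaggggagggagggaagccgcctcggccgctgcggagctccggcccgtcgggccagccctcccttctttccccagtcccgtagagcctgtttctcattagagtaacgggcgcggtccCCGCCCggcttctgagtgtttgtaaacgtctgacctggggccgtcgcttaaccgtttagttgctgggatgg

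The GC box was present in 7 of 7 windows of the set and in 45.0% of all 35116 RefSeq windows. JPH2 and VAT1L held 1 match each, the first NFATC4 window 3, and the first SLC44A2 window 6, of which a pair overlapped each other. The GC content of the windows was 60.0% to 76.7% against a median of 58.7% over all windows. VAT1L and JPH2 were at percentiles 53.2 and 64.9 of all windows, and the windows of SLC44A2 and NFATC4 at 77.2 to 93.1. The NFAT core GGAAA lay in 4 of 7 windows against 61.2% of all, TGACG (the core of the cyclic AMP response site) in 3 against 24.6%, the CCAAT box in 2 against 34.6%, and the HIF core ACGTG in 1 against 21.4%. The HIF core and TGACG overlapped in the first NFATC4 window. The AP-1 site TGACTCA matched none of the 7 windows and 4.95% of all. The E-box CACGTG, which contains the HIF core, matched none and 7.26% of all, and the full cyclic AMP response site TGACGTCA, which contains TGACG, none and 1.85% of all. The EGR site GCGTGGGCG matched none and 0.795% of all, and the TATA box motif TATAAA none and 11.5% of all. All motifs were searched on both strands, NFATC4 windows 2 and 3 overlap, and a match is a description of letters only.

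Library totals ranged from 31458079 to 53657246 counts. PIWIL4 itself had 17.8 and 17.4 CPM in shPIWIL4 and 38.5 and 37.2 CPM in Scrambled, a log2 fold change of -1.10 (SE 0.09, adjusted p = 1.3e-05, edgeR quasi-likelihood test). All 12 monocyte markers checked, among them CD33, CEBPA and SPI1, reached at least 1 TPM (scaled to gene length and library, as deposited) in both groups. Of the 16108 genes tested, 57.7% were called in either direction, 28.7% higher and 29.1% lower, and 3.12% were called and at least 4-fold lower. With upper-quartile scaling 3446 genes were higher and 5717 lower, against 4618 and 4683 with TMM, and the median over all genes moved to -0.12 on the log2 scale. The groups did not overlap in CPM for 78.6% of tested genes. All 7 members passed the filter on low counts, and their groups did not overlap, as their choice required. In bulk libraries, fewer cells that express a gene and less RNA per cell cannot be told apart.

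The deepest fall among the 7 genes was in JPH2. It had 0.138 and 0.231 CPM in shPIWIL4, from 7 and 12 reads, and 23.8 and 20.8 CPM in Scrambled, from 757 and 1099 reads. Both shPIWIL4 libraries were near the bottom of detection, and each Scrambled library was 90.2 to 172 times higher than each shPIWIL4 library. The log2 fold change was -6.89 (SE 0.21). The spread came mainly from the small counts in shPIWIL4, whose exact 95% Poisson intervals of 2.81 to 14.4 and 6.20 to 21.0 reads overlapped and cover counting error only. On the TPM scale JPH2 averaged 0.0638 ± 0.021 in shPIWIL4 and 7.51 ± 0.56 in Scrambled (SD, n = 2 each).

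NPTX1 was the most abundant of the 7 genes in both groups. Its level was 6.41 and 6.16 CPM in shPIWIL4 and 183 and 195 CPM in Scrambled, a log2 fold change of -4.91 (SE 0.10). In TPM this was 2.39 ± 0.13 in shPIWIL4 and 69.7 ± 4.7 in Scrambled (SD, n = 2 each). The Scrambled level placed NPTX1 at rank 1920 of 20005 genes detected there, above 90.4% of them, and the shPIWIL4 level at rank 12156 of 19897. By this measure a gene best known from neurons was among the more abundant transcripts of Scrambled cells.

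RASGRF1, the least abundant of the 7 in Scrambled, had 0.434 and 0.520 CPM in shPIWIL4 and 10.7 and 10.2 CPM in Scrambled. These came from 22 and 27 reads in shPIWIL4 and 340 and 540 reads in Scrambled. The log2 fold change was -4.45 (SE 0.17), and the library-to-library ratios ran from 19.7 to 24.7. NFATC4 had 2.29 and 2.04 CPM in shPIWIL4 and 37.8 and 40.7 CPM in Scrambled, with a log2 fold change of -4.18 (SE 0.12). In both genes the libraries of a group lay within 1.20 times of each other.

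PPL had 1.12 and 1.08 CPM in shPIWIL4 and 16.9 and 17.3 CPM in Scrambled, with a log2 fold change of -3.96 (SE 0.13). SLC44A2 had 1.64 and 1.58 CPM in shPIWIL4 and 21.8 and 20.5 CPM in Scrambled, with a log2 fold change of -3.71 (SE 0.13). VAT1L had 1.42 and 1.54 CPM in shPIWIL4 and 19.4 and 19.0 CPM in Scrambled, with a log2 fold change of -3.69 (SE 0.13). The last pair differed by less than the SE of either value. For these 3 genes the smallest ratio between any Scrambled and any shPIWIL4 library was 12.3, that of VAT1L, and the largest was 16.1, that of PPL.

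**Figure D1:**
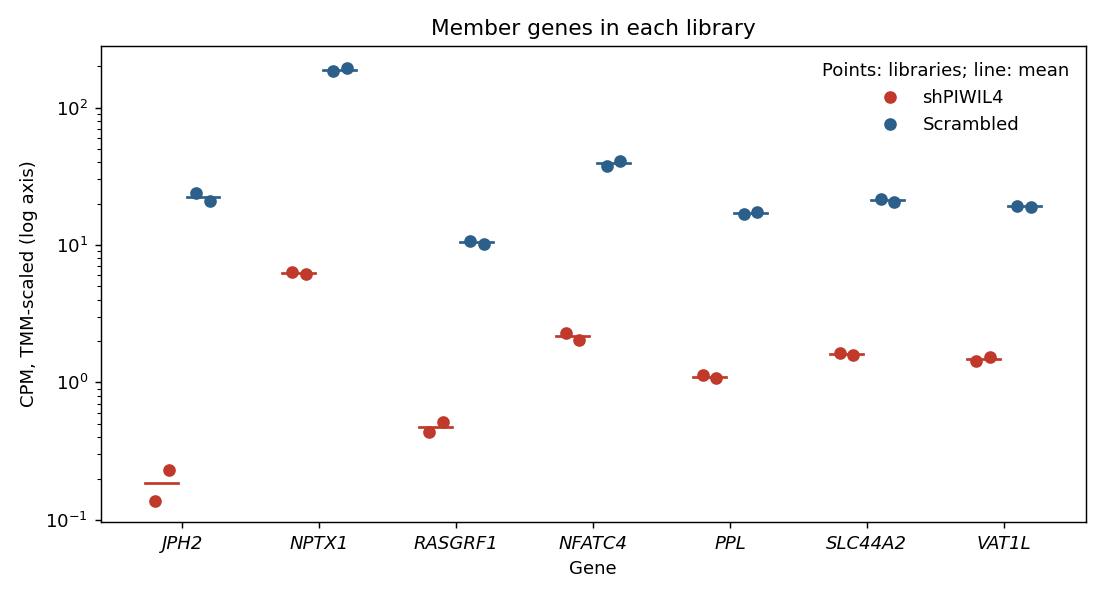
TMM-scaled CPM (log axis) of the 7 genes in each library, shPIWIL4 in red and Scrambled in blue, with points for the 2 libraries of a group and a line for their mean. The 2 libraries of each group lie close together except for JPH2 in shPIWIL4, where 0.138 and 0.231 CPM rest on 7 and 12 reads.

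Per length, the order of the 7 genes was not the same in the 2 groups. In shPIWIL4 the mean TPM ran from NPTX1 (2.39) through SLC44A2 (0.935), VAT1L (0.811), NFATC4 (0.711), PPL (0.365) and RASGRF1 (0.134) to JPH2 (0.0638), and no neighbours in that order overlapped between libraries. In Scrambled it ran from NPTX1 (69.7) through NFATC4 (12.5), SLC44A2 (11.9), VAT1L (10.2), JPH2 (7.51) and PPL (5.49) to RASGRF1 (2.85). There the libraries of NFATC4 (11.8 and 13.2 TPM) overlapped those of SLC44A2 (12.1 and 11.7 TPM), so these neighbours did not differ beyond their spread. In Scrambled the members other than NPTX1 lay between the 39.4th and 59.7th percentile of detected genes. In shPIWIL4 all but NPTX1 lay between the 12.7th and 31.0th percentile. Gene lengths recovered from the deposited FPKM values were 3551 to 7338 bases.

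For each gene, its relatives by sequence family were tested in the same fit. Of 30 relatives in 7 families, 23 passed the filter. Of these, 11 (47.8%) fell and 2 (8.70%) rose, against 29.1% and 28.7% of all genes tested, and their median log2 fold change was -0.43 against -0.0034 over all genes. No relative among the 23 fell as far as the member of its family, which the choice of the members for their large falls favours. Among NFAT factors 4 of 4 relatives fell under each of the 4 scalings tried, while no tested relative of SLC44A2 or VAT1L was called in the main fit.

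**Figure D2:**
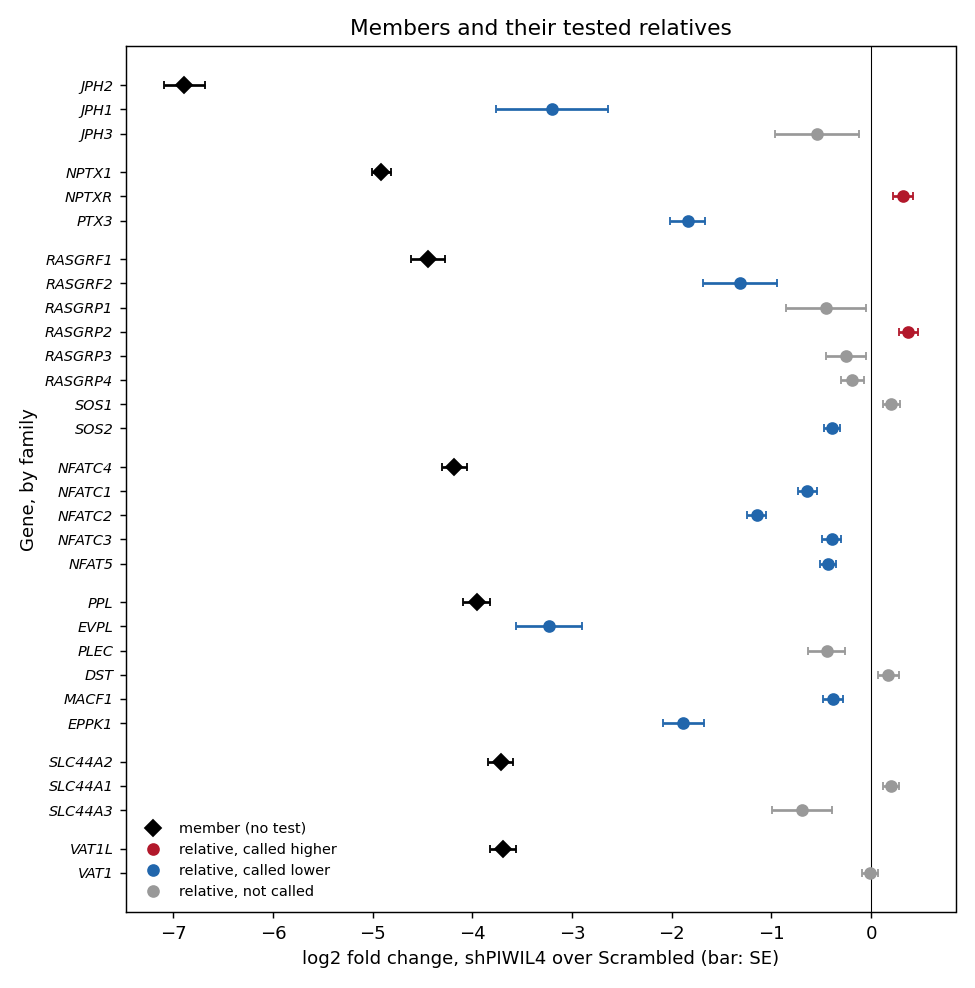
The log2 fold change (shPIWIL4 over Scrambled, bars are SE) of the 7 members (black diamonds, no test) and their 23 tested relatives (circles, coloured by call), grouped by family. Each member lies left of its relatives, which its choice as a large fall favours, with EVPL (-3.23) and JPH1 (-3.20) the lowest of the relatives.

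Among junctophilins, JPH2 was the main transcript in Scrambled cells, and the others were near the limit of detection. JPH2 held 25.2% and 31.2% of the summed junctophilin TPM in shPIWIL4 and 95.6% and 95.4% in Scrambled. JPH1, found in skeletal muscle, had 1 and 3 reads in shPIWIL4 and 14 and 18 reads in Scrambled. It fell, with a log2 fold change of -3.20 (SE 0.56, adjusted p = 1.0e-03). At these counts the Scrambled to shPIWIL4 ratio of summed reads was 9.71, with a 95% exact binomial interval of 3.44 to 37.8 for counting error. The brain junctophilin JPH3 had a log2 fold change of -0.54 (adjusted p = 0.30), and JPH4 had 4 to 9 reads a library and was not tested.

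Pentraxins are secreted proteins that assemble into rings and, in the neuronal forms, bind glutamate receptors. NPTX1 held 19.6% and 20.0% of the family's summed TPM in shPIWIL4 and 86.8% and 87.2% in Scrambled. NPTXR, the membrane-bound receptor form that joins NPTX1 in complexes, had 9.12 and 8.07 TPM in shPIWIL4 and 6.53 and 6.80 TPM in Scrambled. It rose slightly, by 0.32 on the log2 scale (SE 0.10, adjusted p = 0.019). With a library left out, its group keeps 1 library, which is assumed to vary like those of the other group, so such p-values here and below rest on the other group's spread alone. The NPTXR call was lost with upper-quartile scaling (0.20, adjusted p = 0.11), without Scrambled library 1 (adjusted p = 0.096) and without Scrambled library 2 (adjusted p = 0.12). PTX3, a soluble pattern recognition pentraxin made by myeloid cells, had 0.984 and 1.09 TPM in shPIWIL4 and 3.43 and 3.77 TPM in Scrambled, and fell by 1.84 on the log2 scale (SE 0.17, adjusted p = 2.6e-05). NPTX2 had 1 to 5 reads in each library, APCS at most 1, and CRP was at 0 in all 4 libraries.

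Of the other Ras exchange factors, RASGRF2, the nearest relative of RASGRF1, was at 0.0559 and 0.0526 TPM in shPIWIL4 and 0.167 and 0.109 TPM in Scrambled. It fell by 1.32 on the log2 scale (SE 0.37, adjusted p = 0.013), a call lost in DESeq2 (adjusted p = 0.099) and without Scrambled library 1 (adjusted p = 0.11). RASGRF1 was a small part of the family, at 0.0664% and 0.0874% of its summed TPM in shPIWIL4 and 1.97% and 1.77% in Scrambled. Most of that sum came from RASGRP2, an exchange factor best known for activating Rap1 in platelets and leukocytes. It had 135 and 113 TPM in shPIWIL4 and 87.3 and 98.0 TPM in Scrambled, and rose by 0.37 on the log2 scale (SE 0.10, adjusted p = 8.3e-03). SOS2, a general exchange factor downstream of growth factor receptors, fell by 0.39 (SE 0.08, adjusted p = 2.4e-03). SOS1, RASGRP1, RASGRP3 and RASGRP4 were not called, with log2 fold changes of 0.20, -0.45, -0.26 and -0.19. Upper-quartile scaling gave a lower call for RASGRP4 (-0.31, adjusted p = 0.049), and the fit with no filter on low counts a higher call for SOS1 (0.24, adjusted p = 0.026). With 1 library left out, and the spread thus taken from the other group, the values past the threshold were 0.26 for SOS1 and -0.27 for RASGRP4 without shPIWIL4 library 1, -0.53 for RASGRP3 without shPIWIL4 library 2, and -1.05 for RASGRP1 without Scrambled library 2.

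All 4 tested relatives of NFATC4 had a higher TPM than NFATC4 in shPIWIL4, and each fell by less, which the choice of NFATC4 for its large fall favours. NFATC2, a main NFAT factor of lymphocytes, had 4.97 and 5.27 TPM in shPIWIL4 and 10.8 and 11.2 TPM in Scrambled, a log2 fold change of -1.15 (SE 0.09, adjusted p = 1.2e-05). NFATC1, needed for osteoclast formation, fell by 0.64 (SE 0.09, adjusted p = 3.7e-04). NFAT5, which responds to osmotic stress and is not controlled by calcineurin, fell by 0.43 (SE 0.08, adjusted p = 1.3e-03). NFATC3 was the most abundant NFAT transcript, with 40.3 and 44.5 TPM in shPIWIL4 and 55.2 and 53.1 TPM in Scrambled. It fell by 0.40 (SE 0.09, adjusted p = 5.1e-03), and without Scrambled library 1 its adjusted p was 0.057. NFATC4 held 1.11% and 0.929% of the family's TPM in shPIWIL4 and 11.0% and 12.1% in Scrambled.

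Among plakins, the closest partner of PPL moved with it. EVPL (envoplakin), which pairs with periplakin in the cornified envelope, had 8 and 5 reads in shPIWIL4 and 35 and 68 reads in Scrambled, a log2 fold change of -3.23 (SE 0.33, adjusted p = 4.0e-05). EPPK1 (epiplakin), which binds keratin filaments, fell by 1.88 (SE 0.20, adjusted p = 5.5e-05), also at low levels of 0.176 and 0.141 TPM in shPIWIL4 and 0.558 and 0.577 TPM in Scrambled. The widely expressed spectraplakin MACF1, which links actin and microtubules, fell by 0.38 (SE 0.10, adjusted p = 0.011), and without Scrambled library 1 its adjusted p was 0.10. PLEC (plectin) and DST were not called, at -0.45 (adjusted p = 0.065) and 0.17 (adjusted p = 0.18). PLEC differed between the shPIWIL4 libraries, at 21.4 and 12.9 TPM against 20.0 and 25.1 TPM in Scrambled, and with upper-quartile scaling it was called lower (-0.56, adjusted p = 0.033). Its log2 fold change was -0.81 without shPIWIL4 library 1 and -0.55 without Scrambled library 1, and that of DST was 0.32 without shPIWIL4 library 1. These passed the threshold on the spread of the other group alone. The desmosomal plakin DSP had at most 6 reads in any library and was not tested.

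SLC44A2 and VAT1L each had an abundant relative that was not called. SLC44A1, the best studied choline transporter of the family, had 143 and 153 CPM in shPIWIL4 and 128 and 129 CPM in Scrambled, a log2 fold change of 0.20 (SE 0.08, adjusted p = 0.058). With no filter on low counts SLC44A1 was called higher (0.24, adjusted p = 0.019), and without shPIWIL4 library 1 its log2 fold change was 0.26. SLC44A3 was at -0.70 (SE 0.30, adjusted p = 0.072), and with upper-quartile scaling it was called lower (adjusted p = 0.041). SLC44A4 had at most 1 read in a library, and SLC44A5 was at 0 in all 4. SLC44A2 held 3.26% and 2.94% of the family's TPM in shPIWIL4 and 33.2% and 31.6% in Scrambled. VAT1 had 176 and 167 TPM in shPIWIL4 and 162 and 172 TPM in Scrambled, with a log2 fold change of -0.012 (SE 0.08, adjusted p = 0.91), while VAT1L made up 0.449% and 0.495% of the pair in shPIWIL4 and 5.87% and 5.62% in Scrambled.

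**Figure D3:**
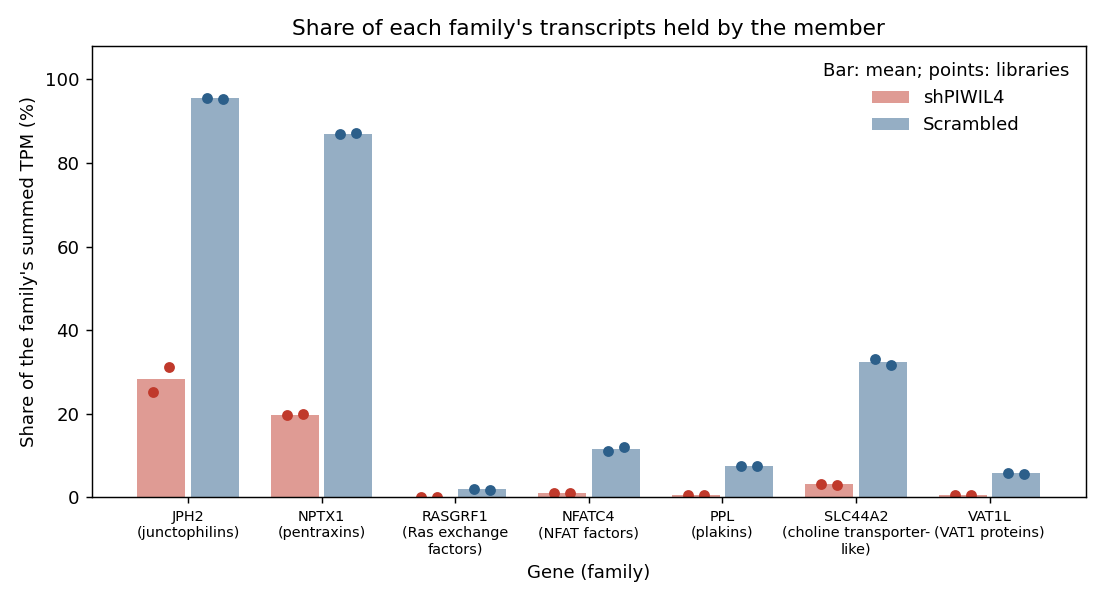
The share of each family's summed TPM (percent, bars are means and points are the 2 libraries) that came from the member, shPIWIL4 in red and Scrambled in blue. JPH2 and NPTX1 made up most of their families in Scrambled only, at 95.4% to 95.6% and 86.8% to 87.2%, and the other members were a minor part of theirs in both groups.

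Genes beside the members on the chromosomes were examined next, taking the nearest 2 tested genes on each side in RefSeq order. Of these 28 neighbours, 9 (32.1%) fell and 7 rose, and of all genes tested 29.1% fell and 28.7% rose. The locus of NFATC4 on chromosome 14 had the most falls. NYNRIN, the next gene after it, had 2.51 and 2.67 CPM in shPIWIL4 and 14.2 and 13.5 CPM in Scrambled, a log2 fold change of -2.41 (SE 0.12, adjusted p = 9.5e-07). CBLN3, a cerebellin-type secreted protein gene, fell by 1.83 (SE 0.28, adjusted p = 4.6e-04), and ADCY4, an adenylate cyclase gene, fell by 1.28 (SE 0.12, adjusted p = 2.6e-05). RIPK3, a necroptosis kinase gene that lies between ADCY4 and NFATC4, was at -0.13 (adjusted p = 0.37). Around RASGRF1 on chromosome 15 the called neighbours went the other way. CTSH, a lysosomal protease gene, rose by 0.78 (SE 0.09, adjusted p = 6.4e-05), and TMED3, a cargo receptor gene of the early secretory pathway, by 1.24 (SE 0.08, adjusted p = 3.0e-06).

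PPL on chromosome 16 overlaps SEC14L5, which lies on the opposite strand in the GENCODE annotation. SEC14L5 had 2 and 4 reads in shPIWIL4 and 38 and 41 reads in Scrambled, a log2 fold change of -3.96 (SE 0.46, adjusted p = 8.8e-05) beside the -3.96 of PPL. The Scrambled to shPIWIL4 ratio of summed reads was 16.0, with a 95% exact binomial interval of 7.02 to 44.9 for counting error. The strand setting of the counting is not given, so reads from the 2 genes cannot be told apart where they overlap. The other neighbours of PPL were mixed, with UBN1 up by 0.69 (SE 0.08) and NAGPA up by 1.37 (SE 0.12), and GLYR1 down by 0.39 (SE 0.08), all called. Near JPH2 on chromosome 20, TOX2 fell by 0.87 (SE 0.11, adjusted p = 1.4e-04) and the antisense transcript OSER1-AS1 by 1.43 (SE 0.24, adjusted p = 7.6e-04), while OSER1 was at -0.064 and GTSF1L at 0.091. Near NPTX1 on chromosome 17, ENDOV fell by 0.74 (SE 0.12, adjusted p = 5.3e-04), and RPTOR and CHMP6 were not called. With upper-quartile scaling RPTOR was called lower (-0.30, adjusted p = 0.038), and without shPIWIL4 library 1 it was at -0.32. Beside SLC44A2 on chromosome 19, CDKN2D fell by 0.41 (adjusted p = 0.015, and 0.17 without Scrambled library 1). Beside VAT1L on chromosome 16, WWOX and CDYL2 rose by 0.37 and 0.40 (adjusted p = 0.022 and 0.014), and without Scrambled library 2 their adjusted p-values were 0.23 and 0.18.

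**Figure D4:**
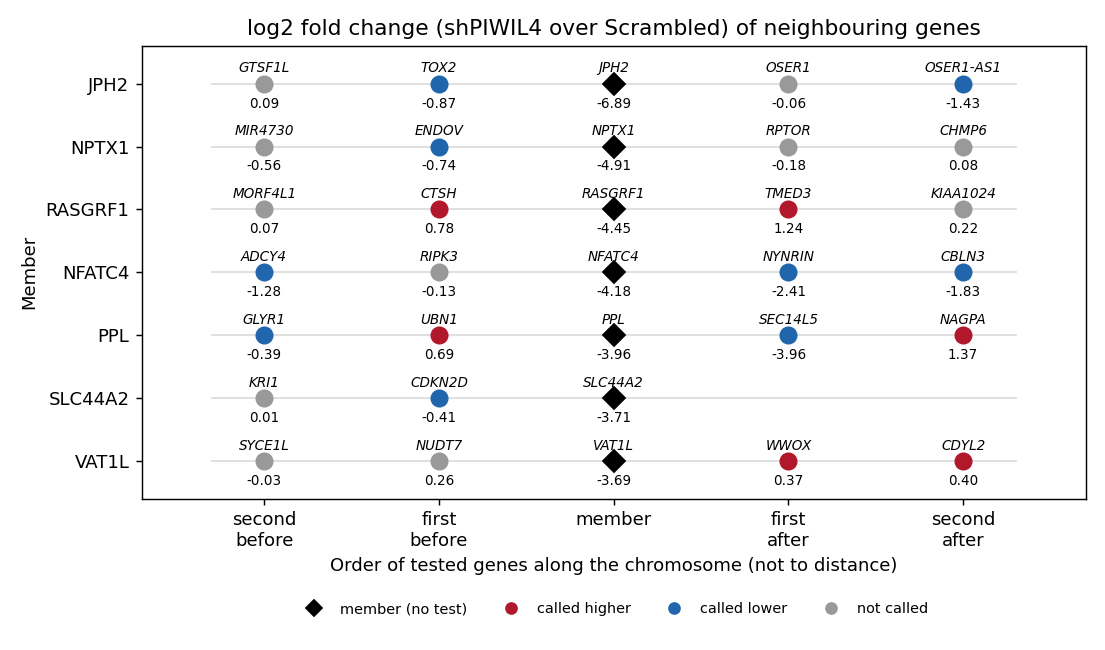
The log2 fold change (shPIWIL4 over Scrambled) of the 2 tested genes before and after each member in chromosome order, not to distance, coloured by call; those after SLC44A2 are not shown. NFATC4 has 3 lower neighbours, JPH2 and PPL 2 each, and both called neighbours of RASGRF1 are higher.

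Partner and pathway genes were read from 7 lists drawn from the known roles of the members, none of which is counted in them. The lists were chosen with earlier results of these data known, and no list was tested as a set. For the calcium store and junction genes that JPH2 and its channels belong to, 9 of 28 tested genes (32.1%) rose and 10 (35.7%) fell, against 28.7% and 29.1% of all genes. ASPH, whose locus also encodes the junctional protein junctin, had 77.6 and 78.8 CPM in shPIWIL4 and 27.3 and 32.0 CPM in Scrambled, a log2 fold change of 1.40 (SE 0.10, adjusted p = 5.1e-06). ORAI3, a calcium entry channel gene, and CACNA1A, a neuronal calcium channel gene, fell by 0.96 and 0.99 (adjusted p = 2.3e-05 and 3.5e-05). The heart and muscle store genes CASQ2, TRDN and SLN were at 0 in all 4 libraries, and the heart release channel gene RYR2 averaged 0.117 CPM in shPIWIL4 and 0.224 CPM in Scrambled. Other genes of this list were well detected. RYR1 had 7.01 and 6.81 CPM in shPIWIL4 and 14.3 and 15.6 CPM in Scrambled, and fell by 1.12 (SE 0.11, adjusted p = 3.6e-05). ATP2A2 had 669 and 690 CPM in shPIWIL4 and 384 and 382 CPM in Scrambled, and rose by 0.83 (SE 0.09, adjusted p = 4.4e-05).

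For calcineurin and NFAT regulation, 8 of 27 tested genes (29.6%) rose and 5 (18.5%) fell, against 28.7% and 29.1% of all genes. With upper-quartile scaling 4 rose, and 2 fell in DESeq2 and without Scrambled library 2, and 3 without Scrambled library 1. RCAN1, which binds and inhibits calcineurin, had 36.1 and 37.1 CPM in shPIWIL4 and 14.0 and 12.7 CPM in Scrambled, a log2 fold change of 1.45 (SE 0.10, adjusted p = 4.5e-06). The calcineurin regulatory subunit gene PPP3R1 rose by 0.57 (SE 0.09, adjusted p = 6.0e-04) and GSK3A, a kinase that phosphorylates NFAT factors, by 0.42 (SE 0.08, adjusted p = 1.4e-03).

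For the Ras switch and its effectors, 15 of 31 tested genes (48.4%) fell and 5 rose, against 29.1% and 28.7% of all genes. Their median log2 fold change was -0.068. Without Scrambled library 1, without Scrambled library 2, and with upper-quartile scaling, 3 rose in each case. RASAL3, a GTPase-activating gene of blood cells, had 10.0 and 8.16 CPM in shPIWIL4 and 23.0 and 24.6 CPM in Scrambled, a log2 fold change of -1.39 (SE 0.12, adjusted p = 1.7e-05). RASA4, of the same function, fell by 2.43 (SE 0.20, adjusted p = 1.3e-05), but it has a near-identical copy, so its count is uncertain. MRAS, a Ras-like GTPase gene, rose by 0.97 (SE 0.09, adjusted p = 2.3e-05).

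For desmosomes and the cornified envelope, where PPL acts, 8 of 15 tested genes (53.3%) fell and 1 (6.67%) rose, against 29.1% and 28.7% of all genes, with a median log2 fold change of -0.43. Another 9 of the 28 listed genes, among them DSG1, DSG3 and IVL, were at 0 in all 4 libraries. JUP (plakoglobin), which joins desmosomal cadherins to plakins, had 6.04 and 4.96 CPM in shPIWIL4 and 25.8 and 30.6 CPM in Scrambled, a log2 fold change of -2.36 (SE 0.14, adjusted p = 1.8e-06). The desmosomal cadherin gene DSG2 fell by 1.77 (SE 0.10, adjusted p = 1.8e-06). TGM5, a transglutaminase that cross-links the cornified envelope, fell by 2.60 (SE 0.12, adjusted p = 5.4e-07). In the stricter filter, which asks for a count of 100, 5 genes of this list were called lower. With shPIWIL4 library 1 left out, or library 2, 2 rose in each case.

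For choline uptake and phosphatidylcholine synthesis, 10 of 21 tested genes (47.6%) rose and 2 (9.52%) fell, against 28.7% and 29.1% of all genes, with a median log2 fold change of 0.17. FLVCR2, a haem transporter relative that carries choline, had 26.8 and 28.0 CPM in shPIWIL4 and 10.0 and 8.54 CPM in Scrambled, a log2 fold change of 1.57 (SE 0.11, adjusted p = 5.7e-06). Its paralog FLVCR1 fell by 0.97 (SE 0.10, adjusted p = 3.8e-05), and CHKA, the kinase of the first step of phosphatidylcholine synthesis, rose by 0.68 (SE 0.08, adjusted p = 1.2e-04). Without shPIWIL4 library 1, 4 genes of this list were lower.

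For partners of the neuronal pentraxins, only 10 of 21 listed genes passed the filter, 3 of them higher and 4 lower, against 28.7% and 29.1% of all genes, and the AMPA receptor genes GRIA1 and GRIA2 were at 0 in all 4 libraries. GRIA3, another AMPA receptor subunit gene, rose at a low level, with 2.07 and 2.35 CPM in shPIWIL4 and 0.346 and 0.606 CPM in Scrambled (log2 fold change 2.13, SE 0.25, adjusted p = 9.5e-05). DLG4, a synaptic scaffold gene, fell by 0.68 (adjusted p = 7.2e-04), and CACNG8, an AMPA receptor auxiliary subunit gene, rose by 1.78 at under 1 CPM (adjusted p = 8.7e-04). For a list of quinone and enone reductases that holds VAT1 and other relatives of VAT1L, 2 of 13 tested genes rose and 4 fell, against 28.7% and 29.1% of all genes. NQO2 is a quinone reductase of another sequence family. CRYZL1 fell by 0.85 (SE 0.10), and RTN4IP1 and NQO2 rose by 0.82 (SE 0.13) and 0.70 (SE 0.14), all at an adjusted p of at most 1.95e-03. Without Scrambled library 1 and without Scrambled library 2, 1 reductase gene was lower, and 2 were without shPIWIL4 library 1.

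**Figure D5:**
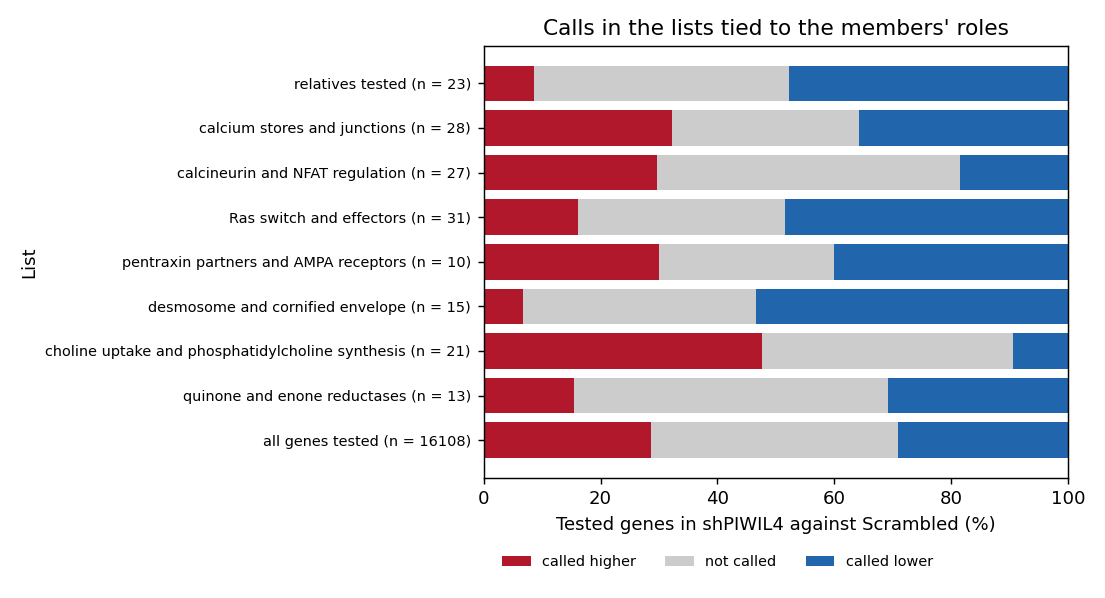
The percentage of tested genes called higher (red), not called (grey) and called lower (blue) in shPIWIL4 against Scrambled, for the relatives, the 7 lists and all 16108 genes tested. The desmosome, Ras and relatives' bars have the largest lower parts (53.3%, 48.4% and 47.8%, against 29.1% of all genes), and the choline bar the largest higher part (47.6%).

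For muscle, neuron, epithelial, fibroblast and B and T cell markers, most genes of each list were under 1 TPM in each group. Of 14 heart and skeletal muscle markers, 4 reached 1 TPM in each group, and their summed TPM was 30.0 and 25.8 in shPIWIL4 and 41.7 and 42.2 in Scrambled. TNNT2, MYH7, ACTC1, MYL2 and MYOD1 were at 0 in all libraries. Of 14 neuron markers, 4 reached 1 TPM in shPIWIL4 and 3 in Scrambled, with sums of 7.87 and 7.11 TPM in shPIWIL4 and 11.8 and 13.2 TPM in Scrambled. STMN2, GAP43, SYT1, NEFL and NEFM were at 0. Of 14 epithelial and keratinocyte markers, 3 reached 1 TPM in each group, with sums of 30.2 and 27.1 TPM in shPIWIL4 and 23.0 and 23.1 TPM in Scrambled, and KRT5, KRT19 and KRT1 were at 0. Fibroblast markers summed to 4.19 and 4.45 TPM in shPIWIL4 and 5.84 and 5.42 TPM in Scrambled, with 2 and 3 of 10 at 1 TPM or more and COL1A2, COL3A1, LUM and POSTN at 0. B and T cell markers summed to 105 and 107 TPM in shPIWIL4 and 164 and 159 TPM in Scrambled, with 4 and 5 of 12 at 1 TPM or more and CD3E, CD2 and LCK at 0. The monocyte markers summed to 4207 and 4044 TPM in shPIWIL4 and 1580 and 1633 TPM in Scrambled, while their median log2 fold change was 3.2e-05. Of these 12, 3 rose, 3 fell and 6 were not called, and LYZ (lysozyme) had the largest change, a log2 fold change of 3.62 (SE 0.10, adjusted p = 4.8e-08). The part of these markers in the falls of the 7 genes was not tested.

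The genes outside the set whose pattern over the 4 libraries lay closest to each member were themselves lower in shPIWIL4. Their log2 fold changes ran from -4.41 (SLC2A3) to -3.35 (PFKFB4). The measure fixes this, since it compares the same values that chose the members. Likeness was the Euclidean distance between log2(CPM + 0.5) values, each less its Scrambled mean, over 9275 genes with a Scrambled mean of at least 10 CPM. The members and unnamed loci were left out of these genes, so no member was compared with another member. The pseudocount shrinks differences of genes at low CPM. SLC44A2 was closest to PFKFB4 (distance 0.096) and HSPA7 (0.19), and VAT1L to the same pair in the other order (0.097 for HSPA7 and 0.15 for PFKFB4). HSPA7 is nearly identical to another heat shock gene, so its count is uncertain. RASGRF1 was closest to SPP1 (0.17) and TBC1D30 (0.22), PPL to PFKFB4 (0.22) and TBC1D30 (0.28), and NFATC4 to ARG1 (0.24) and ENO2 (0.26). NPTX1 and JPH2 stood farther from the genes compared, both with SLC2A3 first (0.83 and 1.17) and ARG1 second (1.33 and 1.68).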

How the data were processed

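STAR, featureCounts, DESeq2 and the build hg19 are named in the submitters' processing notes. Their versions, the annotation and whether counting used strand were not found in the labels or file headers. The authors deposited raw read counts per gene name for each library, with FPKM and TPM values per the file headers. Deposited FPKM gave gene lengths, and deposited TPM gave levels compared between genes. A deposited matrix of the whole series was not used.

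The counts of 16108 of 25680 genes passed edgeR's filterByExpr (minimum count 10, minimum total 15). They were scaled by TMM and tested, shPIWIL4 against Scrambled with no other term, by the robust quasi-likelihood F test of edgeR (version 4.0.16). Benjamini-Hochberg adjustment ran over all genes tested, and a call is an adjusted p under 0.05. The SE is the size of the log2 fold change over the square root of F, and CPM uses TMM factors. The procedure was checked on simulated data of 15919 genes, with 50 genes changed at each fold. It recovered 16% of 1.25-fold, 70% of 1.5-fold, 96% of 2-fold and 88% of 4-fold changes, and 8 of 143 calls were false. Far fewer genes changed there than were called in the real data, so scaling under a broad change was not checked.

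Libraries of a group differed by more than sampling noise (mean chi-square per gene 27.9 in shPIWIL4 and 7.89 in Scrambled). The members and lists were chosen with earlier results of these data known. Named genes are the members, PIWIL4, tested relatives, up to 3 called genes of each list with the smallest p, and called neighbours. Also named are the 2 genes outside the set closest in pattern to each member, and the genes at the edge of the set. Relatives too low to test, genes shown at 0, RYR1, RYR2, ATP2A2, LYZ and other markers and neighbours that were not called were named outside that rule, after their values were seen. A called neighbour is not reported here by name.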

Additional observations from a re-analysis of the deposited data

How the results depend on the processing

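Over 14 alternatives each, all 7 members stayed lower in shPIWIL4. These were other scalings, filters and tests, the deposited TPM, the replicate block, the crossed block described below, and each library left out. The members were chosen for their large falls in these same libraries, so the direction was close to fixed and is no separate support. JPH2 had the widest range of log2 fold change, -7.30 without shPIWIL4 library 2 to -6.56 without shPIWIL4 library 1, because its shPIWIL4 level rests on 7 and 12 reads. Relatives called higher numbered 2, and 1 with upper-quartile factors, 4 with no filter and 1 to 5 with a library left out. Relatives called lower numbered 8 to 14 over all alternatives run. With 1 or 5 neighbours a side, 9 of 14 and 34 of 70 neighbours were called, against 16 of 28 with 2 and 57.7% of all genes tested. Genes called in the whole table numbered 3560 to 5164 higher and 3525 to 5011 lower with a library left out. With the replicate number as a block, 3921 genes were higher and 4197 lower, and 1 relative was higher. Under this replicate block the calls of NPTXR (adjusted p = 0.080) and WWOX (adjusted p = 0.073) were lost and PLEC was called lower (adjusted p = 2.6e-03). Same-numbered libraries deviated in opposite directions (r = -0.48 over 16108 genes). A crossed replicate block, added after seeing this, gave 5728 genes higher and 5641 lower, with 5 relatives higher.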

Other observations

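Markers of other cell types moved both ways in shPIWIL4. Of those tested, 2 of 6 neuron markers fell and 1 rose, 3 of 5 muscle markers fell and 1 rose, and 1 of 3 epithelial markers fell and 1 rose. Among B and T cell markers 5 of 6 fell and 1 rose, and 3 of 5 fibroblast markers fell and 1 rose. Of all genes tested 29.1% fell and 28.7% rose. The lists are small, and none was tested against those shares. The genes named here were picked after their values were seen. The synaptic vesicle fusion gene SNAP25 had 1.46 and 1.54 CPM in shPIWIL4 and 6.52 and 7.01 CPM in Scrambled, a log2 fold change of -2.17 (SE 0.15, adjusted p = 3.9e-06). The heart troponin gene TNNI3 had 0.947 and 0.866 CPM in shPIWIL4 and 3.56 and 3.62 CPM in Scrambled (-1.98, SE 0.17). The collagen gene COL1A1 had 0.178 and 0.289 CPM in shPIWIL4 and 1.83 and 2.37 CPM in Scrambled, and the B cell receptor component CD79A had 0.296 and 0.231 CPM in shPIWIL4 and 2.05 and 2.08 CPM in Scrambled. Each list also held a gene that rose. The giant muscle protein gene TTN had 256 and 301 CPM in shPIWIL4 and 186 and 174 CPM in Scrambled, and rose by 0.63 (SE 0.10, adjusted p = 5.2e-04). The keratin gene KRT10 rose by 0.44 (SE 0.10, adjusted p = 3.4e-03), the synaptic vesicle gene SYP by 0.81 (SE 0.20, adjusted p = 6.4e-03), the B cell factor gene PAX5 by 0.59 (SE 0.09, adjusted p = 3.1e-04) and the fibrillin gene FBN1 by 0.85 (SE 0.12, adjusted p = 3.1e-04).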
